A study of Mus musculus with 14 samples.

Results

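The genes described here are the epidermal growth factor (EGF) ligand genes *Areg*, *Ereg*, *Hbegf*, *Tgfa*, *Btc* and *Epgn* and the ERBB receptor genes *Egfr*, *Erbb2* and *Erbb3*, 9 of the 54332 genes in the time-course table, found by their mouse gene symbols. RNA was sequenced from sorted epidermal stem cells (EpdSCs) of back skin in CD1 mice labelled male that all carried *Krt14-rtTA* and *TRE-myc-Sox9*, so that doxycycline (DOX) switched on a MYC-tagged SOX9 in cells using the keratin 14 promoter. The 10 libraries hold 2 biological replicates at each of 5 timepoints: D0 (P21, no DOX) and W1, W2, W6 and W12 of DOX, at P28, P35 and P63 for the first 3 of these. W12 cells came from newborn skin of the same genotype grafted onto female Nude hosts, which lack mature T cells, with DOX begun after the graft had healed. Grafting and the longest time on DOX therefore cannot be told apart, mice were older at each timepoint up to W6, and controls of the same age that lacked the transgene were not analysed here. The comparisons ask how RNA levels changed as SOX9 was sustained in cells that the study describes as SOX9-negative.

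EGF family ligands are made as membrane-anchored precursors, and proteases of the ADAM family shed the active growth factor from the cell surface. Areg, Tgfa and Epgn bind EGFR, whereas Hbegf, Ereg and Btc bind both EGFR and ERBB4. ERBB2 has no known ligand of its own and ERBB3 has a weak kinase, so both act mainly as partners in receptor pairs. In the epidermis this pathway supports keratinocyte proliferation, survival and wound repair, and EGFR is found mainly in the basal layer.

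Levels are TPM, a length-scaled measure of transcript abundance that divides by transcript length and set every library to the same total. The depth behind each value is therefore unknown, and no counting interval can be given. Of the 54332 genes, 13110 passed a filter on low values (mean TPM of 1 or more across libraries). They were fitted with limma on log2(TPM + 1), with Benjamini-Hochberg adjustment over all of them. For genes with low TPM, fold changes on this scale come out too small. Of the members, 8 were tested, and *Btc*, with a mean of 0.730 TPM, was not.

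The transgene read 89.6 and 45.6 TPM at D0 and 606 to 3414 TPM in the 8 later libraries. The separate *Sox9* entry read 11.5 and 9.47 TPM at D0, so *Sox9* RNA was not absent before DOX. The basal keratin gene *Krt14* lay between 19997 and 37666 TPM in all 10. Other genes of the 7-gene basal epidermis list did not keep their level: 6 were lower than at D0 at W6 (all but *Krt14*), beside 14.1% of all genes. At W12, 4 were lower and 1 was higher, beside 25.1% and 17.9% of all genes. *Krt15* read 322 and 242 TPM at W12 against 11241 and 11928 TPM at D0. In D0 replicate 2, labelled male, *Xist* was at 4.61 TPM and *Ddx3y*, a Y-linked gene, at 0.0278 TPM, and at W12 both *Xist* (5.51 and 3.50 TPM) and *Ddx3y* (10.97 and 12.9 TPM) were present. The 4 endothelial markers *Pecam1*, *Cdh5*, *Kdr* and *Tek* summed to 34.1 and 78.5 TPM at W12 and to at most 1.57 TPM elsewhere, although the sort excluded CD31, the product of *Pecam1*. *Cd34* read 16.5 and 32.0 TPM at W12 in cells sorted as CD34-negative. In the 5-gene hair follicle bulge list, to which *Cd34* belongs, it was the 1 gene called higher at W12 (17.9% of all genes). *Nfatc1* was the 1 called lower (25.1% of all genes). The median log2 change of that list from D0 was -0.58, beside -0.08 for all genes. The summed fibroblast markers reached 52.2 TPM in W6 replicate 2, of which *Dcn* gave 51.2 TPM and *Pdgfra* 0.161 TPM, and 13.7 and 28.1 TPM at W12, nearly all of it *Dcn*, and were at most 4.06 TPM in the other 7. In bulk libraries, fewer cells of a type and less RNA per cell cannot be told apart.

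Of the ligand genes, 4 lie together on mouse chromosome 5 (GRCm38, positions of GENCODE M21). *Epgn* (chr5:91027464-91035215), *Ereg* (chr5:91074622-91093646) and *Areg* (chr5:91139599-91148432) follow one another on the plus strand, and *Btc* (chr5:91357261-91402994) lies on the minus strand beyond them, the 4 genes spanning 375.5 kb. The other members are dispersed: *Tgfa* at chr6:86195223-86275719, *Erbb3* at chr10:128567523-128589652 on the minus strand, and *Egfr* and *Erbb2* at chr11:16752203-16918158 and chr11:98412470-98437716, with *Hbegf* on a further chromosome. Upstream sequences of *Epgn* and *Areg* are shown because these neighbours, which share a strand and lie 104 kb apart, had different courses over time, and because they were the 2 of the 6 members in the RefSeq promoter table (GRCm38.p6) that held any of the motifs searched. Capitals mark a TATA box (TATAAA) in both and, in *Areg*, a full cAMP response element (TGACGTCA), and each sequence ends 1 base before the annotated start of its gene.
Epgn, chr5:91027267-91027463, plus strand: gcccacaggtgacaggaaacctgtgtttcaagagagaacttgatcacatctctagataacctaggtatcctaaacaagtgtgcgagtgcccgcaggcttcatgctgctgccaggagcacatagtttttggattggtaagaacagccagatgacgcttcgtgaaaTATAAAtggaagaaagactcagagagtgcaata
Areg, chr5:91139349-91139598, plus strand: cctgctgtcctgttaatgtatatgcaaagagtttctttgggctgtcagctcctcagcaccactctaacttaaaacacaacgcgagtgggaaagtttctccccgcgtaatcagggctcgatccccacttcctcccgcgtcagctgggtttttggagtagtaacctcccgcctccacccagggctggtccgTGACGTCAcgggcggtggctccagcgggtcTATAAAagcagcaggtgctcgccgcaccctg
The TATA box begins 33 bases before the gene start in *Epgn* and 31 bases before it in *Areg*, whose cAMP response element begins 61 bases before it. Of the 32851 promoters in the table, 12.4% held TATAAA and 1.55% held TGACGTCA in the 250 bases before the start, on either strand. The AP-1 motif TGANTCA (6.75% of promoters) and the SOX motifs ACAATG (10.7%) and ACAAAG (16.5%) were in none of the 6 member promoters in the same window. All were searched over the full 250 bases before the RefSeq start, whereas the *Epgn* stretch printed (197 bases) stops at the GENCODE start, which lies upstream of it. The motifs were chosen after the sequences were seen, and a match is a description of the letters, not of binding.

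**Figure D1:**
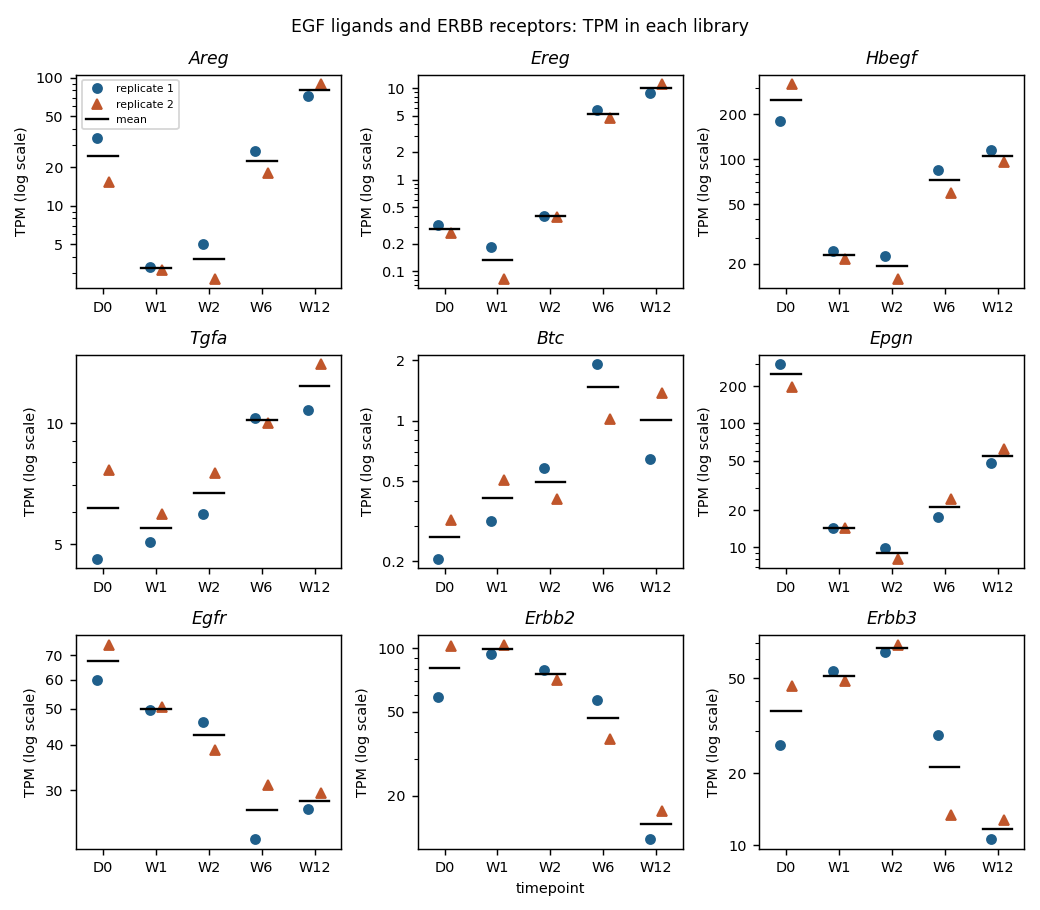
TPM (log axis, own range in each panel) of the 9 genes in each library at the 5 timepoints, with circles for replicate 1, triangles for replicate 2 and a bar for the mean. *Epgn* falls from 300 and 197 TPM at D0 to 8.11 and 9.89 TPM at W2, *Ereg* is below 0.41 TPM until W2 and above 4.7 TPM from W6, and *Erbb2* is lowest at W12.

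All 8 tested members differed between D0 and at least one later timepoint by limma's moderated F test (adjusted P from 3.31e-05 for *Epgn* to 0.0220 for *Tgfa*), as did 57.5% of all genes tested. At W1, 3 members were lower than at D0, where 4.1% of all genes were lower, and none was higher, where 5.79% were. At W2 the same 3 genes, *Areg*, *Hbegf* and *Epgn*, were lower, against 6.64% of all genes, and again none was higher, against 9.06%. By W6, 3 members were lower (14.1% of all genes) and 1 was higher (18.3%). At W12 all 8 differed from D0, 5 of them lower (25.1% of all genes) and 3 higher (17.9%). These 4 comparisons share the D0 libraries. Scaling the libraries by median ratios moved the share of higher genes among all called at W1 from 58.6% to 47.4%, and left the member calls at W1 as they were.

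Between successive timepoints the members changed at the 2 later steps. From W1 to W2 limma called none of the 8, and called 0.0458% of all genes higher and 0.0686% lower. At an unadjusted P under 0.05 there was 1 member in that step, *Epgn* (adjusted P = 0.298, and from 0.0905 to 0.803 over all alternatives). From W2 to W6, 4 members rose (7.99% of all genes), all of them ligands, and 2 fell (8.31%), both receptors. Of these 6, only *Areg*, *Hbegf* and *Ereg* were still called when the fit held the 4 libraries of that step alone, and with W2 replicate 2 left out only *Ereg* was. From W6 to W12, 3 ligands rose (6.66% of all genes) and 1 receptor fell (13.5%). In that step the median change of all genes was -0.16, which median-ratio scaling set to -0.01 while raising the share of higher genes among those called from 33.0% to 55.0%, and the 4 member calls held under that scaling.

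**Figure D2:**
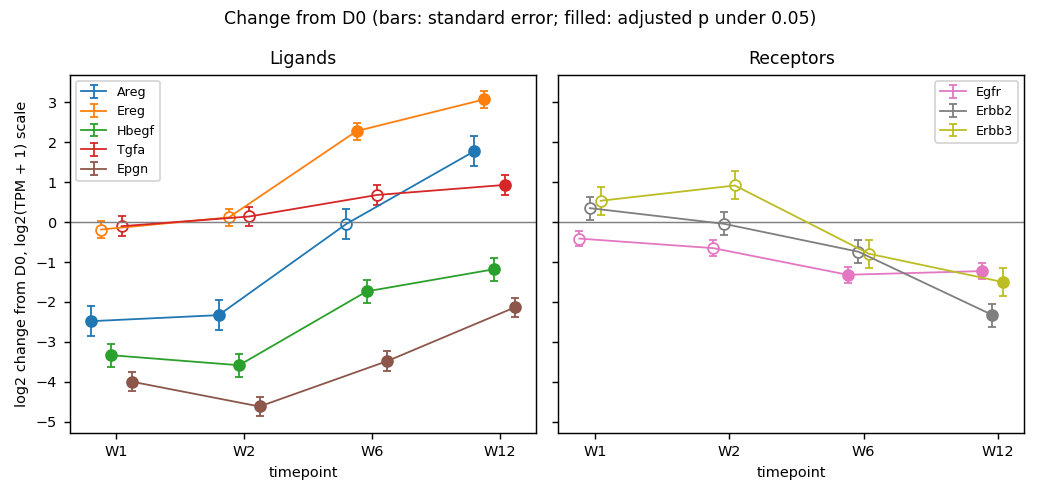
Change from D0 in log2(TPM + 1) for the 5 tested ligand genes (left) and the 3 receptor genes (right) at W1, W2, W6 and W12, with the moderated standard error, filled where the adjusted P was under 0.05. *Areg* crosses from -2.48 at W1 to 1.77 at W12, *Hbegf* and *Epgn* stay below 0 throughout, *Ereg* rises to 3.07, and all 3 receptors end below -1.2.

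*Epgn*, which encodes epigen, had the largest fall of the members. Its level was 300 and 197 TPM at D0, 14.4 and 14.2 TPM at W1, 9.89 and 8.11 TPM at W2, 17.7 and 24.7 TPM at W6, and 47.9 and 62.2 TPM at W12. Every later library was below both D0 libraries, and the mean at W2 was 27.6 times lower than at D0. On the log2(TPM + 1) scale the change from D0 was -3.99 at W1 and -4.61 at W2, then -3.48 at W6 and -2.13 at W12, each with a standard error of 0.24 (limma adjusted P = 9.85e-05, 5.43e-05, 7.04e-05 and 0.000321). *Epgn* then recovered in part, by 1.14 from W2 to W6 (adjusted P = 0.0205) and by 1.35 from W6 to W12 (adjusted P = 0.00788). The first of these rises was not called without either W2 library, without W6 replicate 2, without a filter on low TPM or with only the libraries of that step in the fit (adjusted P up to 0.128), and the second not without W12 replicate 2 (adjusted P = 0.0559, and 0.00333 to 0.0559 over all alternatives). In order of level, D0 was highest, then W12, W6, W1 and W2, with no overlap between neighbours in that order, though the differences between W6 and W1 (change 0.51, adjusted P = 0.156) and between W1 and W2 missed the threshold.

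*Hbegf* encodes heparin-binding EGF-like growth factor, made by keratinocytes at wound edges, and lies at chr18:36504927-36515805 on the minus strand. It stood at 181 and 317 TPM at D0, 24.2 and 21.6 TPM at W1, 22.7 and 16.0 TPM at W2, 85.1 and 59.6 TPM at W6, and 116 and 95.8 TPM at W12. No later library overlapped those of D0, W1 and W2 were lowest, and W6 and W12 lay between. The log2 change from D0 was -3.33 ± 0.29 (standard error, n = 2 per timepoint) at W1 and -3.58 at W2, then -1.73 at W6 and -1.18 at W12 (limma adjusted P = 0.000409, 0.000209, 0.00319 and 0.0118). The rise from W2 to W6 was 1.85 (adjusted P = 0.00711), and the mean difference of 0.56 between W6 and W12 missed the threshold (adjusted P = 0.217). The fall at W12 depended on D0 replicate 2, the library whose *Xist* went against its label: without it the change was -0.77 (adjusted P = 0.0724). The call was also lost without W12 replicate 2 and without a filter on low TPM, and over all alternatives the adjusted P ran from 0.00297 to 0.0785.

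*Areg*, the gene of amphiregulin, fell and then rose above its starting level. The 2 libraries of each timepoint had 33.6 and 15.3 TPM at D0, 3.34 and 3.17 TPM at W1, 5.02 and 2.71 TPM at W2, 26.8 and 18.0 TPM at W6, and 72.1 and 88.8 TPM at W12. W1 and W2 were below both D0 libraries, W6 overlapped them, and W12 was above every other library. Against D0 the log2 change was -2.48 ± 0.37 at W1 and -2.33 at W2 (limma adjusted P = 0.00467 and 0.00444), -0.05 at W6 (adjusted P = 0.937) and 1.77 at W12 (adjusted P = 0.00581). With only the 4 libraries of each comparison in the fit, the falls at W1 and W2 had adjusted P of 0.0654 and 0.0642. The rises of 2.28 from W2 to W6 and 1.82 from W6 to W12 were called (adjusted P = 0.00803 and 0.0125), the first not without W2 replicate 2 and the second not without either W12 library (adjusted P up to 0.0770). The mean TPM at W12 was 24.7 times that at W1 and 3.29 times that at D0, or 5.26 times without D0 replicate 1 and 2.39 times without D0 replicate 2.

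*Ereg* encodes epiregulin and was near the lower limit of the table until W2, at 0.319 and 0.258 TPM at D0, 0.184 and 0.0828 TPM at W1, and 0.403 and 0.391 TPM at W2. It then read 5.78 and 4.75 TPM at W6 and 8.77 and 10.99 TPM at W12. The lowest of the 4 late libraries was 11.8 times the highest of the 6 early ones. On the log2(TPM + 1) scale, which shrinks such a change, it rose by 2.28 ± 0.21 at W6 and 3.07 ± 0.21 at W12 against D0 (limma adjusted P = 0.000228 and 2.83e-05), and by 2.16 from W2 to W6 (adjusted P = 0.00158). These 3 calls held under every alternative that kept the gene. A mean of at least 5 TPM removed it. Its libraries at D0, W1 and W2 were all under 1 TPM, so it passed the filter on low TPM only through W6 and W12. Its place among the tested genes was therefore not independent of these rises, which were also called with no filter. The rise of 0.79 from W6 to W12 (adjusted P = 0.0333) was lost under 11 of 18 alternatives, among them the replicate block and a pseudocount of 0.1 (adjusted P up to 0.151). The antisense gene *Gm19610* overlaps the start of *Ereg* on the other strand, with 0 TPM at D0 and W1 and 1.31 and 1.93 TPM at W12. Whether counting used strand is not given in the sources used here.

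*Tgfa*, the gene of transforming growth factor alpha, was the steadiest ligand. Its values were 4.61 and 7.67 TPM at D0, 5.07 and 5.93 TPM at W1, 5.94 and 7.50 TPM at W2, 10.3 and 10.02 TPM at W6, and 10.8 and 14.0 TPM at W12. W1 and W2 overlapped D0, whereas W6 and W12 were above it. Only the rise of 0.93 ± 0.25 at W12 was called against D0 (limma adjusted P = 0.0161), and the change of 0.68 at W6 was not (adjusted P = 0.0658, or called with the replicate block or without D0 replicate 2). The W12 call was lost without D0 replicate 1, without W12 replicate 2 or with only the 4 libraries of the comparison in the fit (adjusted P up to 0.111).

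*Btc*, the betacellulin gene, had the lowest mean of the ligands at D0, W6 and W12, and *Ereg* had a lower one at W1 and W2. At D0 the libraries of these genes overlapped. It was listed at 0.206 and 0.321 TPM at D0, 0.317 and 0.508 TPM at W1, 0.583 and 0.408 TPM at W2, 1.91 and 1.02 TPM at W6, and 0.642 and 1.38 TPM at W12. Both W6 and both W12 libraries were above the D0 libraries and overlapped each other. In the limma fit of all 38965 genes with any TPM above 0, its change from D0 was 0.94 ± 0.28 at W6 and 0.65 at W12, which missed the threshold (adjusted P = 0.1001 and 0.226).

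The 6 ligands together summed to 519 and 538 TPM at D0, 47.6 and 45.5 TPM at W1, 44.6 and 35.1 TPM at W2, 148 and 118 TPM at W6, and 256 and 273 TPM at W12. The sum was thus lowest at W1 and W2, and the W12 sum lay between those of W6 and D0, with no overlap between these groups. *Hbegf* and *Epgn* made up 92.5% and 95.6% of the ligand TPM in the 2 D0 libraries, *Epgn* leading in replicate 1 (57.7%) and *Hbegf* in replicate 2 (58.9%). At W12 *Hbegf* gave 45.2% and 35.1%, *Areg* 28.2% and 32.5%, and *Epgn* 18.7% and 22.8%. *Areg* had given 6.48% and 2.84% at D0, so its share was higher at W12 in both libraries. *Tgfa* reached its highest shares at W2 (13.3% and 21.4%), when its own level overlapped that of D0.

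**Figure D3:**
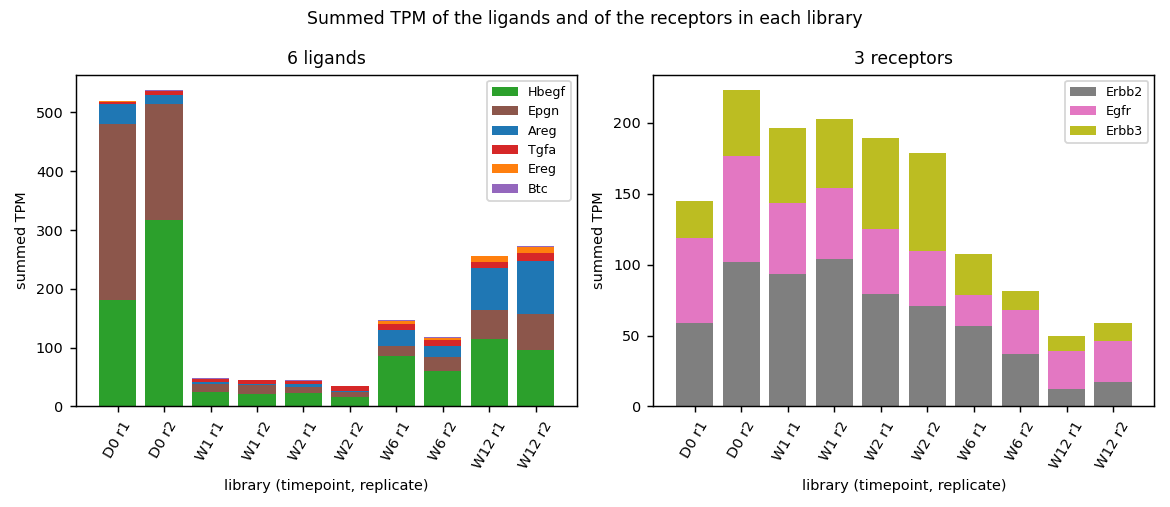
Summed TPM (linear axes) of the 6 ligand genes (left) and of the 3 receptor genes (right) in each of the 10 libraries, stacked by gene. The ligand sum drops from 519 and 538 TPM at D0 to 35.1 to 47.6 TPM at W1 and W2 and is 256 and 273 TPM at W12, when the receptor sum is 49.9 and 59.2 TPM.

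Immediate-early genes, which respond to growth factors and also to the handling of cells during dissociation, moved with the early ligand falls. The 17 genes of this list summed to 33828 and 55103 TPM at D0 and to between 6072 and 14479 TPM in the 8 later libraries. All 17 were tested, and 12 of them were lower than at D0 at W1 (4.1% of all genes) and again at W6 (14.1%), 10 at W2 (6.64%) and 13 at W12 (25.1%), and the list median was -2.44 at W1 and -2.55 at W12 on the log2 scale, where that of all genes was 0.09 and -0.08. The largest fall called was that of *Nr4a1* at W2 (-4.11, adjusted P = 0.00204) and of *Fosb* at W12 (-3.98, adjusted P = 0.00165), both transcription factors, and the largest rise that of *Hspa1a*, a heat-shock protein, at W2 (1.33, adjusted P = 0.0385) and of *Ier3* at W12 (1.15, adjusted P = 0.00967). Within D0 the list sum and *Hbegf* were higher in replicate 2, while *Epgn* and *Areg* were higher in replicate 1. From W6 to W12 the list sum did not rise (9474 and 8132, then 7291 and 9333 TPM) while *Areg* and *Epgn* did. The part of this list in the ligand changes was not tested.

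*Egfr*, the receptor for all 6 ligands, was 59.9 and 74.9 TPM at D0, 49.6 and 50.5 TPM at W1, 46.1 and 38.7 TPM at W2, 22.2 and 31.1 TPM at W6, and 26.7 and 29.4 TPM at W12. Every later library was below both D0 libraries. The log2 change from D0 was -0.41 ± 0.19 at W1 and -0.65 at W2, which missed the threshold (limma adjusted P = 0.223 and 0.0538), and -1.32 at W6 and -1.23 at W12, which passed it (adjusted P = 0.00172 and 0.00155). The W2 change was called after median-ratio scaling, after quantile normalization and without D0 replicate 1 or either W6 library (adjusted P from 0.0268 to 0.302 over all alternatives). The fall of 0.67 from W2 to W6 sat at the threshold (adjusted P = 0.0494) and was lost under 12 of 18 alternatives. W6 and W12 did not differ beyond their spread (change 0.09, adjusted P = 0.778).

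*Erbb2*, the shared partner of the other receptors, had 58.6 and 102 TPM at D0, 93.7 and 104 TPM at W1, 79.2 and 71.0 TPM at W2, 56.8 and 37.0 TPM at W6, and 12.6 and 17.0 TPM at W12. W1 and W2 overlapped the wide D0 range, both W6 libraries lay under it, replicate 1 by little, and both W12 libraries were below all others. Against D0 the log2 change was 0.35 ± 0.29 at W1, -0.04 at W2 and -0.74 at W6, none of them called by limma (adjusted P = 0.495, 0.941 and 0.0798), and -2.33 at W12 (adjusted P = 0.000467). The W6 change was called without D0 replicate 1 (-1.13, adjusted P = 0.0147) or without W6 replicate 1, and was -0.35 without D0 replicate 2 (adjusted P = 0.430). Between W6 and W12 it fell by 1.59 (adjusted P = 0.00785, lost without W12 replicate 1 at 0.0733 and 0.00360 to 0.0733 over all alternatives). The mean at D0 was 5.43 times that at W12.

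*Erbb3*, a receptor for neuregulins, peaked in the middle of the course, with 26.2 and 46.3 TPM at D0, 53.4 and 48.5 TPM at W1, 64.3 and 69.1 TPM at W2, 28.9 and 13.3 TPM at W6, and 10.6 and 12.8 TPM at W12. W1 and W2 were above both D0 libraries, W6 overlapped D0, and W12 was below it. The rises of 0.53 ± 0.35 at W1 and 0.92 at W2 missed the threshold (limma adjusted P = 0.380 and 0.114). W2 was called only when a W6 library was left out of the fit (adjusted P as low as 0.0419). From W2 to W6 *Erbb3* fell by 1.71 (adjusted P = 0.0174), a call lost without either W2 library, without W6 replicate 2, without a filter on low TPM and with only the libraries of that step in the fit (adjusted P up to 0.104). At W12 it was lower than at D0 by -1.50 (adjusted P = 0.00925), but without D0 replicate 2 by -1.10 (adjusted P = 0.0653), and the call was also lost without W12 replicate 1 (adjusted P from 0.00283 to 0.0656 over all alternatives). The change at W6 was -0.79 (adjusted P = 0.114), and -1.19 and called without D0 replicate 1 (adjusted P = 0.0409), and it was called without W6 replicate 1 as well (adjusted P from 0.0200 to 0.559 over all alternatives). The difference between W6 and W12, whose libraries did not overlap, missed the threshold (-0.71, adjusted P = 0.191), except without W6 replicate 2, the library with the highest *Dcn* and the lower W6 *Erbb3* level (-1.24, adjusted P = 0.0277, and up to 0.732 over all alternatives).

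The 3 receptors summed to 145 and 223 TPM at D0, 179 to 203 TPM at W1 and W2, 108 and 81.4 TPM at W6, and 49.9 and 59.2 TPM at W12. *Erbb2* gave the largest share in 7 of 10 libraries, from 39.7% to 52.6%, and *Egfr* did in D0 replicate 1 (41.4%) and both W12 libraries (53.6% and 49.7%). At D0 the ligand sum was 3.59 and 2.41 times the receptor sum. The ratio was between 0.196 and 0.242 at W1 and W2, 1.37 and 1.45 at W6, and 5.12 and 4.61 at W12. The 5 timepoints thus ranked W12, D0, W6, then W1 and W2, which overlapped. Genes of the basal epidermis list were also lower, with a median log2 change from D0 of -1.15 at W6 and -0.95 at W12 beside 0.08 and -0.08 for all genes. The median level of its 7 genes was 884 TPM at D0, 690 TPM at W1, 615 TPM at W2, 348 TPM at W6 and 282 TPM at W12, while its sum, most of which was *Krt14*, was 57846 and 60225 TPM at D0, 35314 and 36118 TPM at W6 and 45212 and 46927 TPM at W12. Of 6 differentiated keratinocyte markers, 3 were higher at W6, beside 18.3% of all genes (*Sbsn*, *Flg* and *Ivl*, of which *Sbsn* was not called after median-ratio scaling). At W12, 2 were higher (*Sbsn* and *Ivl*) and 1 was lower (*Lor*), beside 17.9% and 25.1% of all genes. The sum of these markers overlapped between D0 and both times. At W12 the endothelial markers and *Cd74* (102 and 124 TPM) also stood highest, as did *Plin2* of the sebocyte list (88.8 and 98.6 TPM, with the other 4 genes of the list at most 1.95 TPM in any library), and the melanocyte genes *Dct* and *Tyrp1* were called higher than at D0, at 2.57 to 4.76 TPM. The part of these lists in the member changes was not tested. *Cd74* is 1 of a 7-gene leukocyte list, whose other 6 genes were under 1 TPM in both W12 libraries. Among these, *Ptprc*, the general leukocyte marker, was at 0.0184 and 0.327 TPM at W12. *Cd3e*, *Trdc* and *Cd207* were below both D0 libraries at W12, and *Lyz2* was above both.

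Genes around the ligand cluster on chromosome 5 followed no single course. Within 500 kb of it, 34 genes are annotated, 16 of them protein-coding and 10 with a mean of at least 1 TPM. Between the upstream edge of that window and *Epgn* lie the neutrophil-attracting chemokine genes *Cxcl5*, *Cxcl3*, *Cxcl1* and *Cxcl2*, none of which was called against D0 at W2, and all of which rose at W12, by 2.57, 2.89, 3.49 and 3.63 (limma adjusted P = 0.000130, 9.44e-05, 0.000783 and 4.04e-05). *Cxcl1* read 29.0 and 7.40 TPM at D0 and 158 and 198 TPM at W12. *Cxcl5*, *Cxcl3* and *Cxcl2* read at most 0.793 TPM at D0, W1 and W2. They passed the filter on low TPM only through later libraries, so their being tested was not independent of the W12 rise. *Mthfd2l*, a mitochondrial folate enzyme gene whose start lies 96.3 kb before that of *Epgn*, showed a change of 0.01 ± 0.19 at W12 (adjusted P = 0.964). The outer genes *Rassf6* and *Parm1* fell at W12, by 2.68 and 1.17 (adjusted P = 0.00194 and 0.0269). *Epgn* was thus lower than at D0 at W12 while *Ereg*, 47.2 kb on, and *Areg*, 112 kb on, were higher.

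**Figure D4:**
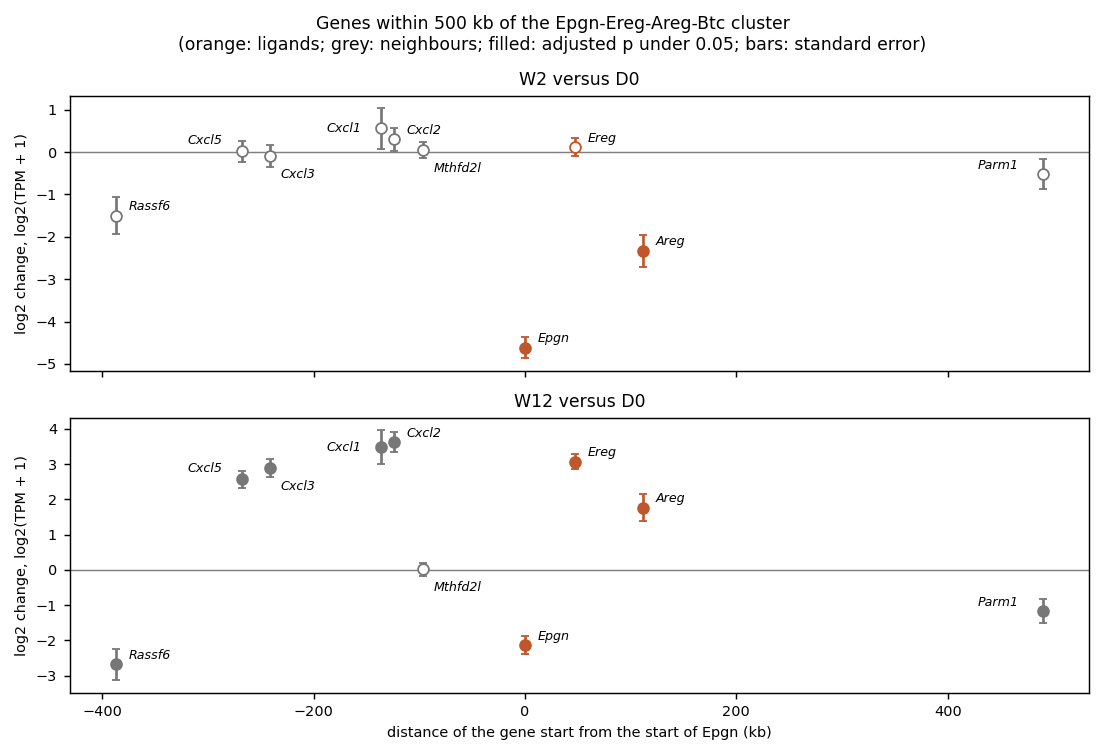
Change from D0 in log2(TPM + 1) at W2 (top) and W12 (bottom) of the 10 tested genes near the ligand cluster, against the distance of each gene start from that of *Epgn* in kb, with ligands in orange, neighbours in grey, standard errors as bars, and filled points where the adjusted P was under 0.05. At W2 only *Epgn* (-4.61) and *Areg* (-2.33) are called, and at W12 the 4 *Cxcl* genes, *Ereg* and *Areg* are above 0 and *Epgn* at -2.13.

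The remaining ERBB ligand genes and *Erbb4* were mostly at low levels, and 2 of these 6 were tested. *Nrg1*, a neuregulin that binds ERBB3 and ERBB4, read 1.12 and 2.62 TPM at D0, 2.88 and 4.93 TPM at W1, 2.96 and 3.83 TPM at W2, 36.3 and 30.9 TPM at W6, and 44.4 and 42.7 TPM at W12. Both late timepoints were above all earlier libraries, with log2 changes from D0 of 3.64 ± 0.29 and 4.01 (limma adjusted P = 0.000112 and 3.48e-05). *Nrg2*, another neuregulin, fell from 7.74 and 18.4 TPM at D0 to 0.170 and 0.387 TPM at W2 (-3.35 ± 0.39, adjusted P = 0.00110), and stood at 3.34 and 3.39 TPM at W12 (-1.58, adjusted P = 0.0120). *Egf*, *Nrg3* and *Erbb4* never exceeded 0.527 TPM in any library, and *Nrg4* never exceeded 1.48 TPM. *Erbb3* and *Nrg1*, receptor and ligand, therefore had opposite calls at W12.

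Of the 7 sheddase and iRhom genes, which release the ligands, 6 were tested. With 1 lower than at D0 at W2 (6.64% of all genes) and 2 at W12 (25.1%), none was higher at either time. *Adam17*, the main sheddase of *Areg*, *Tgfa* and *Hbegf* products, fell from a mean of 36.4 TPM at D0 to 25.4 TPM at W2 (-0.50 ± 0.14, limma adjusted P = 0.0424), and its mean was 34.8 TPM at W12. After median-ratio scaling it was also called lower at W6 than at D0, and higher at W12 than at W6. *Rhbdf1* and *Rhbdf2*, which encode the iRhoms that bring ADAM17 to the cell surface, fell at W12 by 1.05 and 1.20 (adjusted P = 0.00318 and 0.0142). *Adam9*, *Adam10* and *Adam15* were not called at W2 or W12, *Adam9* was lower at W6 (-0.53, adjusted P = 0.0469), and the 3 had means of 12.9 to 56.3 TPM at all timepoints, and *Adam12* was below 0.78 TPM throughout.

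Of the 12 genes in the list of ERBB receptor inhibitors, all were tested. At W2, 3 were higher and 2 lower than at D0 (list median 0.01, all genes 0.06), beside 9.06% and 6.64% of all genes, and at W12 2 were higher and 9 lower (7 after median-ratio scaling), beside 17.9% and 25.1% of all genes, with a median of -1.08 beside -0.08. *Lrig1*, a membrane protein that promotes the degradation of ERBB receptors, read 57.3 and 75.0 TPM at D0, 242 and 215 TPM at W2, then only 11.7 and 13.7 TPM at W12. It was thus the largest rise of this list at W2 (1.78 ± 0.44, limma adjusted P = 0.0279) and its largest fall at W12 (-2.28, adjusted P = 0.00383). *Errfi1*, an inhibitor that binds the EGFR kinase, fell most at W2, from 238 and 481 TPM at D0 to 83.7 and 79.5 TPM (-2.04, adjusted P = 0.00392). *Sh3kbp1*, an adaptor in receptor endocytosis, rose most at W12 (2.73, adjusted P = 0.000279), from 2.77 and 1.84 TPM at D0 to 17.1 and 25.1 TPM.

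The 24 adaptor and signal transducer genes, 23 of them tested, had 2 higher and 1 lower at W2 (9.06% and 6.64% of all genes) and 2 higher and 12 lower at W12 (3 and 10 after median-ratio scaling, and 17.9% and 25.1% of all genes), with a median log2 change of -0.52 at W12 beside -0.08 for all genes. The docking protein gene *Gab1* fell most at both W2 (-0.80, limma adjusted P = 0.0407) and W12 (-1.68, adjusted P = 0.000613). Among the rises, *Plcg1*, a phospholipase gene, led at W2 (1.10, adjusted P = 0.0141). Of the 14 RAS-ERK target and feedback genes, 12 were tested. At W2, 1 was higher and 3 lower than at D0 (9.06% and 6.64% of all genes), with a median of -0.74, and at W12 3 were higher and 6 lower (17.9% and 25.1%), with a median of -0.72. *Etv4*, an ETS factor, rose most at both (1.96 and 1.85, adjusted P = 0.00875 and 0.00429), and peaked at W6 with 67.3 and 39.9 TPM from 2.97 and 3.71 TPM at D0. *Fosl1* fell most at W2, from 613 and 993 TPM to 46.0 and 18.0 TPM (-4.71, adjusted P = 0.000812), and *Myc* at W12 (-3.10, adjusted P = 0.00118). *Myc* and the transgene, which carries a MYC tag, are separate entries in the table.

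**Figure D5:**
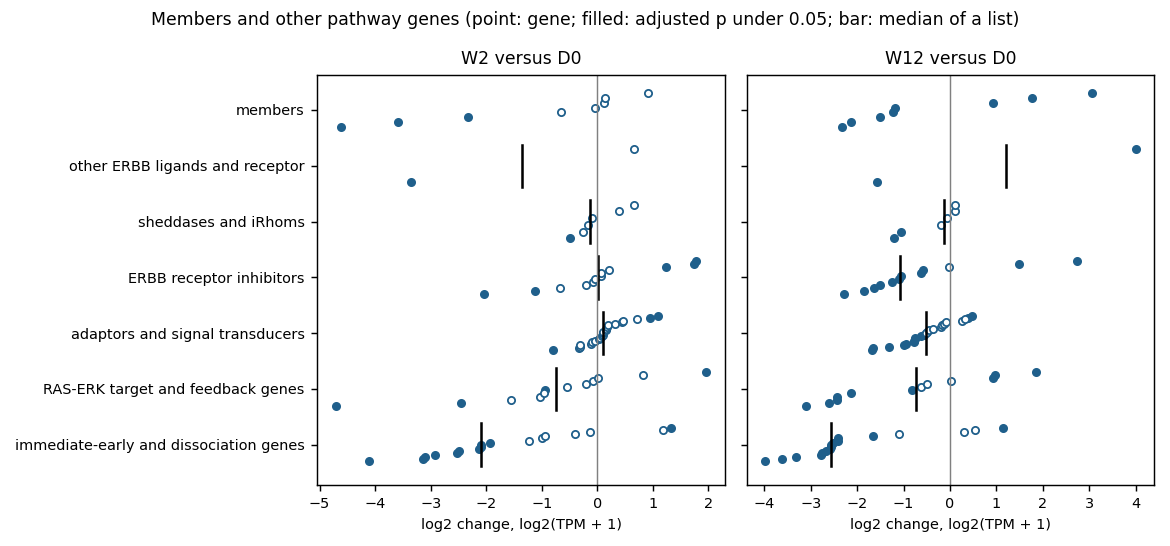
Change from D0 in log2(TPM + 1) at W2 (left) and W12 (right) for the 8 tested members and for the tested genes of 6 pathway lists, 1 point per gene, filled where the adjusted P was under 0.05, with a bar at the median of each list. At W2 the members at the left are *Epgn*, *Hbegf* and *Areg*, and at W12 all 8 members are filled, with *Ereg* (3.07) farthest right.

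Across the 10 libraries, the member levels formed a few shared courses, described here by Pearson's r of log2(TPM + 1) with no test, since the libraries are 2 per timepoint and share their sources. *Hbegf* with *Epgn* (0.910), *Ereg* with *Tgfa* (0.908) and *Erbb2* with *Erbb3* (0.893) were the most alike, and *Ereg* with *Erbb2* (-0.891) and *Areg* with *Erbb3* (-0.878) the most opposed. Outside the members, the tested genes most like each included *Sc5d*, *Ier5* and *Tslp* for *Areg* (0.959 to 0.964), *Pou2af1*, *Gm45397* and *Aldh1a3* for *Ereg* (0.994 to 0.996), *Ckb* and *Pmaip1* for *Hbegf* (0.985 and 0.959), *Rab31*, *Zcchc24* and *Ptpn12* for *Tgfa* (0.922 to 0.931), and *Gm29371*, *Cysltr1* and *Igfbp3* for *Epgn* (0.966 to 0.985). *Cidea*, *Drc1* and *Pla2g2d* were nearest to *Btc* (0.942 to 0.966). For the receptors they included *Sirpa*, *Gal3st4* and *Gas6* for *Egfr* (0.982 to 0.990), *Smarcc2*, *Vangl2* and *Il17re* for *Erbb2* (0.991 to 0.996), and *Sel1l* and *Ano6* for *Erbb3* (0.993 and 0.986). By Spearman's rho, none of the genes named stayed among the nearest 3 for *Ereg*, *Hbegf*, *Epgn*, *Erbb2* and *Erbb3*, and 1 did for each of the other members.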

How the data were processed

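RNA of FACS-sorted EpdSCs was sequenced in 10 time-course libraries. The authors trimmed reads with Skewer, quantified them with Salmon 1.4.0 against GENCODE M24 (GRCm38) with the transgene added, and deposited TPM per gene summed with Tximport 1.12.3. The study's methods name a NovaSeq, while the labels name more than 1 instrument without saying which library ran on which. The strand setting is not given in the sources used here. The other deposited table holds only the authors' DESeq2 comparison of embryonic placode cells (4 libraries), with mean counts, fold changes, standard errors, test statistics and p-values, and was not used.

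limma 3.58.1 (R 4.3.3) fitted the 5 timepoint means on log2(TPM + 1) to the 10 libraries together (eBayes with a mean-variance trend). Genes were called at an adjusted P under 0.05 (Benjamini-Hochberg, two-sided). The count-based test of the study needs read counts, so limma replaced it. On simulated data of 13110 genes for W12 against D0, 89% of changes of 2 and 34% of changes of 1 (log2) were called, with 7 unchanged genes called.

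The members and lists were chosen with earlier results of these data known. The text names all members, the largest called rise and fall of each list at W2 and W12, every gene of lists of 7 or fewer, the 3 genes most like each member, and tested genes within 500 kb of the ligand cluster. Other genes were named as checks. A few genes that this rule picks are not reported here. Positions come from GENCODE M21, which matched 54097 genes of the table, and promoters from RefSeq. Same-numbered replicates are different mice, and the correlation of their deviations ran from -0.129 to 0.182 between timepoints, so that the numbers do not pair the samples. Alternatives are listed in the closing section. Levels and figures were made with Python 3.11.15, pandas 2.3.3 and matplotlib 3.10.9.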

Additional observations from a re-analysis of the deposited data

Results flagged for a closer look

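*Areg* was the member that was called against D0 in opposite directions at different times, below it at W1 and W2 and above it at W12. The direct comparisons gave a log2(TPM + 1) difference of 4.25 between W12 and W1 (limma adjusted P = 8.71e-05) and of 4.10 between W12 and W2 (adjusted P = 0.000114), with both W12 libraries above all 4 libraries of W1 and W2. *Areg* was picked by its calls against D0 in these same libraries, so the direct comparisons restate those calls and add no separate support. The median change of all genes in these comparisons was -0.15 and -0.12. W12 cells were grafted and the earlier ones were not, and the part of grafting cannot be told apart.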

How the results depend on the processing

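The fits were repeated with a pseudocount of 0.1, with no filter on low TPM or with a stricter one (mean of 5 TPM), after scaling by median ratios or quantiles, with no trend in eBayes, on the 4 libraries compared alone, with a replicate block, and without each library in turn, where a lone library is assumed to vary like the others. Of 28 called member changes, 14 held under every alternative, 14 were lost under at least 1, and 0 reversed. Of 28 uncalled changes, 6 were called under some alternative and 8 changed sign. The causes were not tested. With no filter, the number of genes called was 606 at W1 and 1011 at W2 against D0, and 940 from W2 to W6, with 3 members. With the 4 libraries alone it was 411, 1086 and 1094 at W1, W2 and W6 against D0, and 80, 966 and 887 for the successive steps from W1, with 3 members from W2 to W6. A pseudocount of 0.1 gave 7 genes from W1 to W2.

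Leaving out a library gave 3 to 3 members and 377 to 1773 genes called at W1 against D0, 3 to 5 and 652 to 2647 at W2, 4 to 6 and 2356 to 5047 at W6, and 6 to 8 and 3362 to 6291 at W12. It gave 0 to 0 members and 0 to 83 genes from W1 to W2, 1 to 6 and 207 to 3179 from W2 to W6, 1 to 4 and 761 to 3223 from W6 to W12, and 7 to 8 and 5008 to 8145 in the F test. The lowest counts came without W1 replicate 2 at W1, W2 replicate 2 at W2, D0 replicate 2 at W6 and W12 replicate 1 at W12. Among uncalled member changes that reversed, the change at W1 ran from -0.42 to 0.21 for *Tgfa* and from -0.045 to 0.74 for *Erbb2*. At W2 it ran from -0.17 to 0.45 for *Tgfa* (-0.01 without W2 replicate 2) and from -0.44 to 0.35 for *Erbb2* (0.03 without W2 replicate 2). It ran from -0.59 to 0.50 for *Areg* at W6 (0.23 without W6 replicate 2), from -0.20 to 0.50 for *Areg* from W1 to W2, and from -0.14 to 0.33 for *Egfr* from W6 to W12. *Ereg* at W2 was -0.17 after quantile normalization.

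The replicate block called 3, 3, 5 and 8 members at W1, W2, W6 and W12 against D0, and 6 and 1396 genes from W1 to W2 and from W2 to W6. With the numbers of 1 timepoint crossed, chosen after seeing the data, 1225 genes were called at W1 and 4291 at W6 against D0 and 2666 from W6 to W12. Depth is unknown in TPM, so counting error at low levels, as for *Btc* and early *Ereg*, could not be given.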
